A study of Glycine max with 4 samples.

Results

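The comparison described here asked how melatonin altered the leaf transcriptome of soybean (*Glycine max*) seedlings that were under salt at the same time. It set the library of seedlings given NaCl and melatonin together (NaCl+Mt) against the library of seedlings given NaCl alone (NaCl), so it used 2 of the 4 libraries of the series and all 55787 transcript models, which belong to 46367 loci. Seedlings had received water (H2O), 100 µM melatonin (Mt), 1% NaCl or both, and RNA came from leaves. Their age is given as 3 weeks in the labels and methods and as 2 weeks in the results of the study, and the time from treatment to harvest is not given in the sources used here. Melatonin was supplied in solution to the growing seedlings, from an ethanol stock, whereas the seed coating used elsewhere in the study was not applied. The stock was diluted in ethanol and then in water, and the study describes no ethanol control for seedlings without melatonin. Effects of melatonin and of ethanol therefore cannot be told apart here, and differences named after melatonin below include both. The growth conditions of the study name the cultivar SuiNong 28. No group differed in genotype, and each was 1 library of leaves, with no statement of how many plants were pooled.

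Melatonin is an indoleamine made from tryptophan through serotonin, with acetylserotonin methyltransferase (*ASMT*) at the last step. In plants it is known as an antioxidant and as a compound that can ease the growth loss caused by salt. Salt burdens a leaf with osmotic stress, sodium and reactive oxygen, and leaves are known to respond with osmolytes such as proline and sugars, with antioxidants such as ascorbate, and with changes in the cuticle and the cell wall.

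Between 22908979 (H2O) and 36945028 (NaCl+Mt) reads lay on the transcript models of a library, with 28868062 in NaCl. Expression is given as RPKM, the reads on a model scaled for its length and for the mapped reads of the library, as deposited. The lengths were 95.8% multiples of 3, so they are close to coding lengths. With no replicate libraries, no test could compare the conditions: a difference below is one between 2 libraries, and its standard error (SE) and interval cover the counting of reads only. Log2 values are those of RPKM + 0.1 in NaCl+Mt over NaCl. Only transcripts that reached RPKM 1 in NaCl or NaCl+Mt were tested, and those that differed by 2-fold or more were called. Where 4 values of RPKM stand in a row, they are those of H2O, Mt, NaCl and NaCl+Mt. The small subunit of Rubisco, *rbcS* (Glyma13g07610), a defining gene of green leaves, was at RPKM 3529.5 in NaCl against 2781 in NaCl+Mt, with 1019 in H2O and 5644 in Mt. The light-harvesting gene *LHCB4.3* (Glyma11g35130) was at RPKM 8.87, 45.5, 73.7 and 53.7, so both leaf genes were present in every library and neither was called in NaCl+Mt:NaCl.

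Up-regulation outnumbered down-regulation when melatonin was added to salt. In NaCl+Mt:NaCl, 3787 of 38389 tested transcripts rose (9.86%) and 1702 fell (4.43%), while 32900 were called in neither direction. Over loci, each represented by its transcript of highest mean RPKM, the shares were 10.7% up (3216 of 30021) and 4.83% down (1449). Most of the transcriptome moved little: 69.1% of the tested transcripts lay within 1.5-fold, and the median log2 was 0.05. The excess of up-regulation grew with the size of the change. At a fold of at least 4 there were 1546 up- against 321 down-regulated transcripts, and at a fold of at least 32 there were 208 against 26.

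The rises mostly involved transcripts of low level in NaCl. Up-regulated transcripts had a median RPKM of 1.47 in NaCl and 6.21 in NaCl+Mt, and together held 2.62% of the reads in NaCl (95% Wilson interval 2.61 to 2.62) and 9.24% in NaCl+Mt (9.23 to 9.25). Down-regulated transcripts had a median RPKM of 5.58 in NaCl and 1.87 in NaCl+Mt. They held 7.39% of the reads in NaCl (7.38 to 7.40) and 2.79% in NaCl+Mt (2.79 to 2.80). These shares describe the transcripts that the call itself picked. In bulk leaf RNA, fewer cells of a type and less RNA per cell cannot be told apart.

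**Figure D1:**
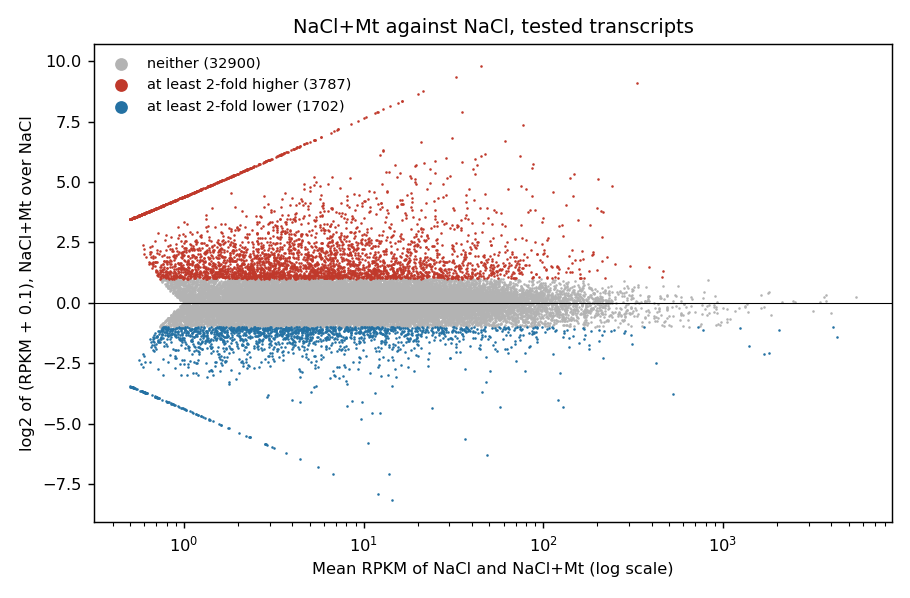
Each point is 1 of the 38389 tested transcripts, with its mean RPKM in NaCl and NaCl+Mt (log axis) and its log2 of NaCl+Mt over NaCl. The 3787 up-regulated transcripts (red) spread wider than the 1702 down-regulated ones (blue), and the straight upper and lower edges are transcripts listed at RPKM 0 in one of the libraries.

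The calls depended on expression level. Among transcripts with a mean RPKM under 1, 41.9% were up-regulated and 17.4% down-regulated, but such a transcript passed the filter through 1 library alone and so had to differ. From a mean RPKM of 5 upwards, up-regulation took 6.63%, 7.15% and 6.45% of the classes 5 to 20, 20 to 100 and 100 or more, and down-regulation took 2.78%, 2.88% and 4.82%. Thus more transcripts rose than fell at every level, and the gap was narrowest in the most abundant class.

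**Figure D2:**
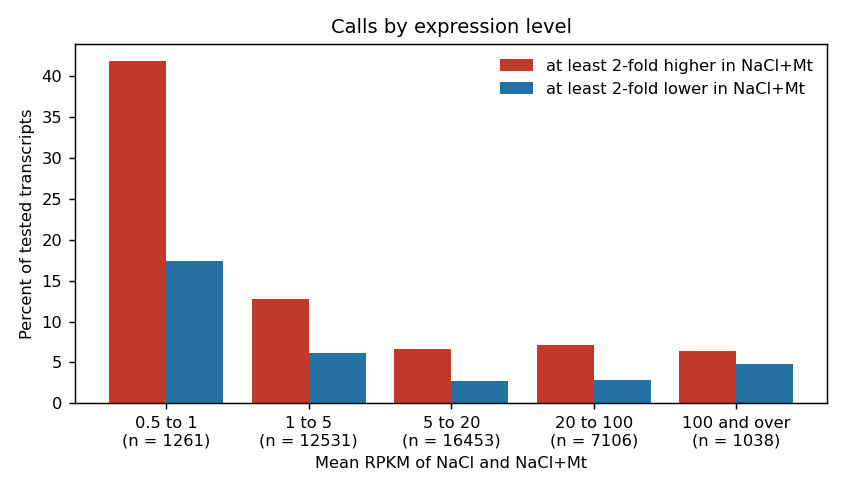
Bars give the percent of tested transcripts called up- (red) or down-regulated (blue) in NaCl+Mt:NaCl by class of mean RPKM, with the number tested under each class. Red bars exceed blue bars in all classes, with 41.9% against 17.4% in the lowest and 6.45% against 4.82% in the highest.

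Some deposited values need care. A number of transcripts have reads but a listed RPKM of 0, and no rule for this was found in the sources used here. Such a 0 in one of the libraries underlay 487 of the up-regulated transcripts (12.9%) and 95 of the down-regulated ones (5.58%). With RPKM computed from their reads, 434 and 66 of them would still be called. Reads are therefore given below for every gene of this kind. Counted in reads, 104 transcripts had at least 30 in NaCl+Mt and 0 in NaCl, against 9 the other way round. These reads are unscaled, and the deeper NaCl+Mt library (36945028 reads on models against 28868062) reached 30 more easily.

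Isoforms of a locus share reads and were hardly ever called in opposite directions. Of 5846 loci with 2 or more tested transcripts, 295 had all of them up-regulated, 101 had all down-regulated, and 5106 had none called. At a further 204 loci only some transcripts were up-regulated and the rest were not called. At 139 loci only some were down-regulated and the rest were not called. Only 1 locus had transcripts called in opposite directions. Its transcripts, each 174 bases long, had 15 reads in both libraries and 4 against 13 reads, and each was listed at 0 once, so that case rests on the listed zeros. Some called loci also lay next to each other on the chromosomes, where tandem copies of a gene can share reads. Runs of at least 3 consecutive tested loci called in the same direction held 217 up-regulated loci in 63 runs on all 20 chromosomes, which is 6.78% of those called. Down-regulated loci formed 9 runs of 29 loci (2.01%). Over all tested loci, 10.7% were called up and 4.83% down. Calls in random order also form runs, more so in the commoner direction, and that share was not computed. The longest run was of 9 loci on chromosome 13, whose RPKM lay between 0.353 and 2.72 in NaCl and between 1.04 and 10.7 in NaCl+Mt. By chromosome, the share of tested loci called up ranged from 8.25% (chromosome 20) to 12.6% (chromosome 18), and the share called down ranged from 4.03% to 5.80%.

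Loci with listed zeros despite reads were left out when called loci were ranked by log2 of RPKM + 1. The 12 largest rises among the rest were of loci that the sources used here do not name. Their RPKM lay between 0.194 and 7.09 in NaCl and between 61.6 and 663 in NaCl+Mt, and between 9.88 and 335 in H2O. All 12 were thus higher in H2O than the highest of them was in NaCl. As a low NaCl value was part of the ranking, that order is a description only. The top locus, Glyma15g06270, had 11 reads in NaCl against 8394 in NaCl+Mt (RPKM 1.12 and 663), and its RPKM was 79.6 in H2O and 1123 in Mt. Its fold was 590, with a counting interval of 329 to 1181. Glyma19g39920 was next, at RPKM 0.837 in NaCl, 154 in NaCl+Mt, 109 in H2O and 15.7 in Mt. For this locus NaCl stood apart from the other 3 libraries.

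By the same ranking, the 12 largest falls were from RPKM of 18.6 to 981 in NaCl to 0 to 72.6 in NaCl+Mt. The same loci lay between 0 and 30.3 in H2O, though a high NaCl value was part of the ranking. Glyma05g05430 had 760 reads in NaCl and none in the other 3 libraries; against a floor of 3 reads it was at least 328-fold lower in NaCl+Mt. The most abundant locus called down was Glyma01g32750, whose RPKM was 6288 in NaCl against 2384 in NaCl+Mt, with 1352 in H2O and 919 in Mt (log2 −1.40 ± 0.01, SE). One of the 12 falls carried an annotation, that of a putative CER1 protein.

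The genes below carry symbols from the annotation of the study, which listed 211 loci in pathways that it had chosen on these libraries. The direction of a list is therefore no independent evidence, and the counts are descriptions. NaCl is also the reference of every call, so a called gene is prone to have NaCl as its lowest or highest library. The order of the libraries given below for called genes is thus a description too. Of the 211 loci, 132 were tested, and 41 were up- and 20 down-regulated (31.1% and 15.2%, against 10.7% and 4.83% of all loci), with a median log2 of 0.24 against 0.04 for all tested loci. With a pseudocount of 1 in place of 0.1, 12 of the called genes named here came under a fold of 2, namely *ENO*, *ALDH3H*, *otsB*, *P5CS2*, *SPDS*, *POLE1*, *KAS I*, *KCS6*, *ATBFRUCT1* Glyma13g42530, *KCS11* Glyma20g35340, *PecMET* Glyma16g01650 and *BGLU* Glyma09g00550.

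**Figure D3:**
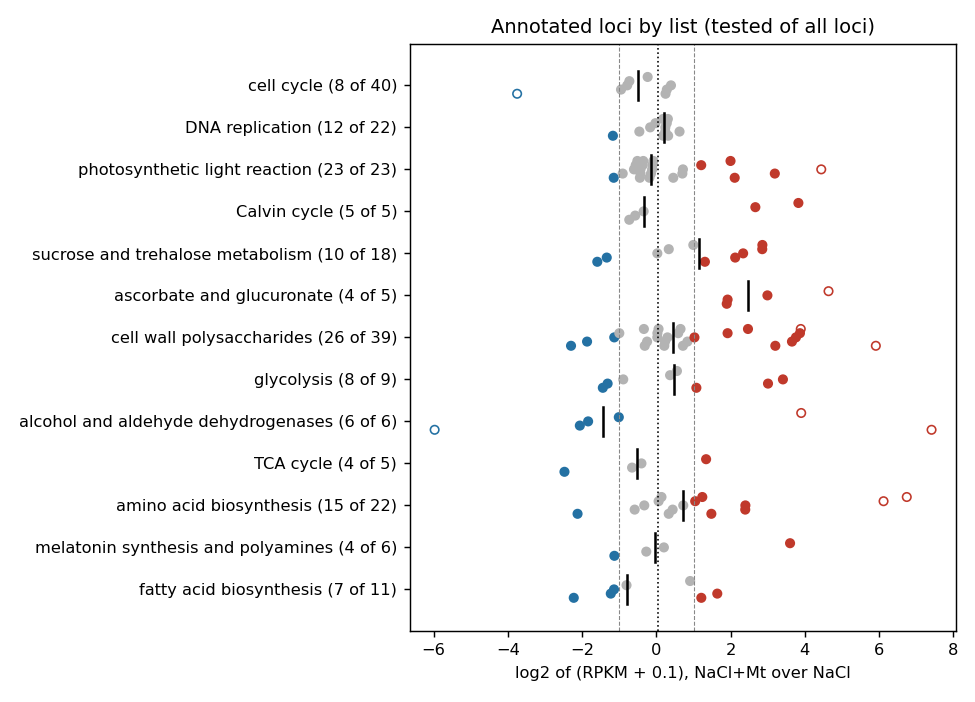
Each point is a tested locus of 1 of the 13 lists at its log2 of NaCl+Mt over NaCl (red up-regulated, blue down-regulated, grey neither; open points have reads but a listed RPKM of 0 in a library). Short black bars are list medians, the dotted line is the median of all loci (0.04) and dashed lines mark a fold of 2; the 4 tested ascorbate and glucuronate loci all lie to the right, and the dehydrogenases lie on both sides.

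All 3 tested invertases, enzymes that cleave sucrose into glucose and fructose, were higher when melatonin was added to salt, and another listed locus, *ATBETAFRUCT4* Glyma01g41990, was below the filter at 9 reads in NaCl against 13 in NaCl+Mt. In the sucrose and trehalose list as a whole, 5 of 10 tested loci rose and 2 fell (18 loci in all, median log2 1.15), against 10.7% and 4.83% of all loci. *ATBETAFRUCT4* (Glyma17g14750), an acid invertase, was at RPKM 20.04 in NaCl against 102 in NaCl+Mt, with 110 in H2O and 22.1 in Mt (log2 2.34 ± 0.04, SE). NaCl+Mt was thus close to H2O, and NaCl close to Mt. The insoluble invertase *ATBFRUCT1* rose at both of its loci: Glyma15g02850 went from 12 to 163 reads, RPKM 0.192 to 2.01 (log2 2.85 ± 0.43), and Glyma13g42530 went from RPKM 1.37 to 3.53 (log2 1.31 ± 0.18). Both were higher in H2O, at 3.40 and 7.76, and lower in Mt, at 0.497 and 0.741.

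Transcripts for hexose phosphorylation were also higher. Hexokinase (*HK*, Glyma11g10130), which traps glucose as its phosphate, went from RPKM 0.437 to 2.24 (log2 2.12 ± 0.32). One fructokinase locus, *scrK* Glyma15g03430, rose from 1.08 to 8.44 (log2 2.85 ± 0.24), close to its 7.99 in H2O and 9.17 in Mt. The other tested *scrK* loci were not called, with log2 values of 0.99 and 0.33. Sucrose synthase (*SUS*) cleaves sucrose to UDP-glucose, and its only tested locus of 6, Glyma09g08550, was level at 7.05 and 7.17. Of the 5 below the filter, Glyma02g40740 went from 1 to 32 reads and Glyma09g29710 from 2 to 63. Glyma11g33240 went from 0 to 7 reads, Glyma15g20180 from 60 to 82 and Glyma16g34290 from 28 to 24. Phosphoglucomutase (*PGM*, Glyma10g38590), which interconverts the glucose phosphates, went the other way. Its RPKM was 307 in NaCl against 102 in NaCl+Mt, with 50.6 in H2O and 43.3 in Mt (log2 −1.59 ± 0.02), so NaCl was the highest library and NaCl+Mt the second. The trehalose-phosphate phosphatase *otsB* Glyma18g02160 fell from 49 to 22 reads (log2 −1.34 ± 0.37). The other *otsB* locus, Glyma11g38230, was below the filter and went the other way, from 12 to 34 reads.

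The listed loci of glycolytic enzymes moved both ways. *GAPC1* (Glyma11g37360), a glyceraldehyde-3-phosphate dehydrogenase that the study listed under the Calvin cycle and that is known in Arabidopsis as the cytosolic, glycolytic enzyme, was at RPKM 3.18 in NaCl against 46.4 in NaCl+Mt, with 51.9 in H2O and 6.72 in Mt. Its log2 was 3.82 ± 0.14, from 118 reads in NaCl against 2227 in NaCl+Mt. The plastid isoform *GAPCP-2* (Glyma03g22790) was at RPKM 42.3, 34.3, 6.17 and 39.7 (log2 2.67 ± 0.09). For *GAPCP-2*, then, NaCl alone was low, whereas for *GAPC1* both NaCl and Mt were low. Phosphofructokinase (*PFK*, Glyma05g36050), which commits hexose phosphate to glycolysis, was at 0.846 in NaCl against 9.94 in NaCl+Mt, with 7.59 in H2O and 1.58 in Mt (log2 3.41 ± 0.23), and so followed the order of *GAPC1* in its low libraries.

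Further down the pathway, phosphoglycerate mutase (*PGAM*, Glyma13g01970) rose from RPKM 0.787 to 7.03 (log2 3.01 ± 0.28), with 10.5 in H2O and 9.46 in Mt. Enolase (*ENO*, Glyma09g28100), which makes phosphoenolpyruvate, rose from 2.74 to 5.90 (log2 1.08 ± 0.15) and stayed below its 20.5 in H2O. Aldolase (*ALDO*), which splits fructose bisphosphate, fell at both loci. Glyma12g04150 was at 438 in NaCl against 176 in NaCl+Mt, with 90.6 in H2O and 203 in Mt (log2 −1.31 ± 0.02), and Glyma11g11870 was at RPKM 44.1, 85.5, 202 and 74.2 (log2 −1.44 ± 0.03). In both, NaCl was the highest of the 4 libraries. In all, 3 of 8 tested loci of the glycolysis list rose and 2 fell (10.7% and 4.83% of all loci), and of the Calvin cycle list *GAPC1* and *GAPCP-2* rose while *rbcS*, *PGK* and *TIM* had log2 values of −0.34, −0.57 and −0.73.

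**Figure D4:**
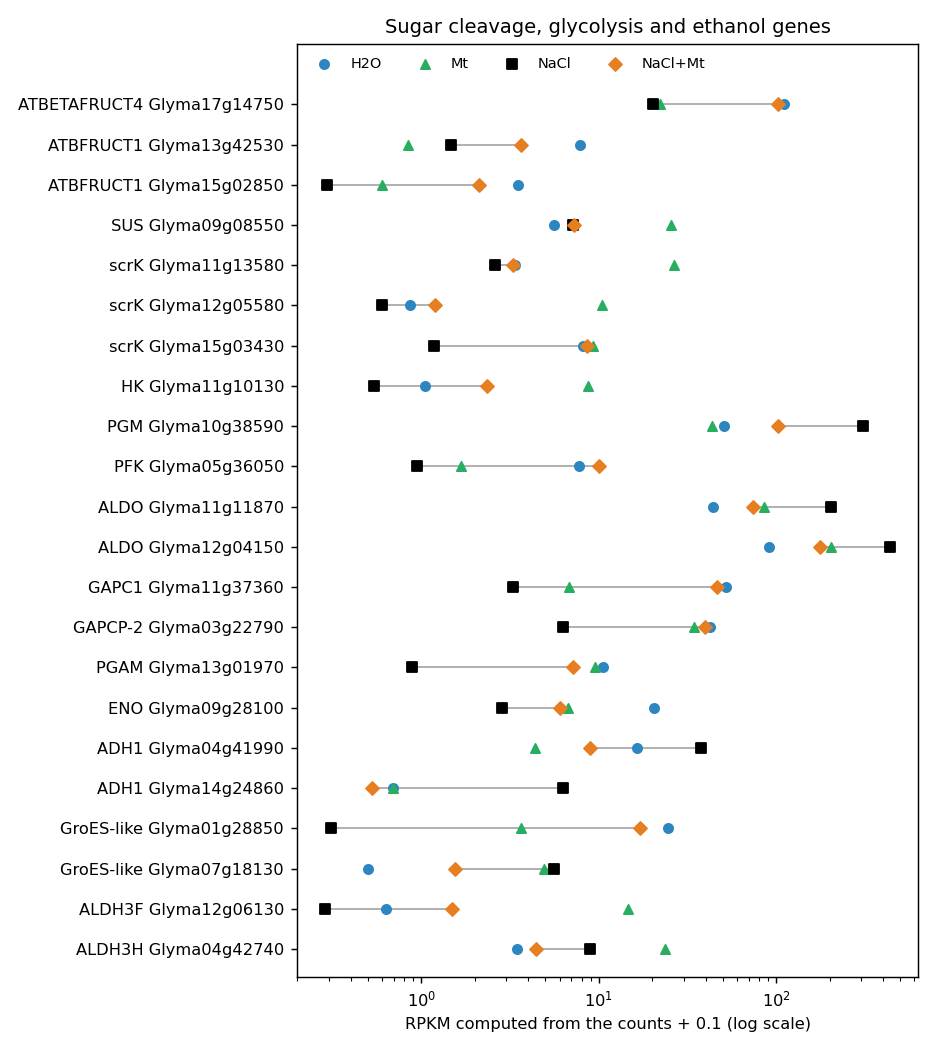
RPKM + 0.1 (log axis) of tested loci of sugar cleavage, glycolysis and ethanol metabolism in the 4 libraries, computed from the reads so that listed zeros do not appear; grey lines join NaCl (black squares) and NaCl+Mt (orange diamonds). *GAPC1* moves from 3.18 to 46.4, close to H2O at 51.9, while *PGM*, *ALDO* and *ADH1* move to the left.

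Alcohol and aldehyde dehydrogenases moved in both directions, and all 6 were called, 2 up and 4 down (median log2 −1.43), against 10.7% and 4.83% of all loci. Alcohol dehydrogenase (*ADH1*), which reduces acetaldehyde to ethanol, fell at both loci. Glyma04g41990 was at RPKM 37.3 in NaCl against 8.84 in NaCl+Mt, with 16.2 in H2O and 4.24 in Mt (log2 −2.06 ± 0.08). Glyma14g24860 had 248 reads in NaCl against 22 in NaCl+Mt, and 19 in both H2O and Mt, all but NaCl being listed at 0, so its log2 of −5.97 became −3.59 from the reads. NaCl was the highest library at both *ADH1* loci. The 2 *GroES-like* zinc-binding dehydrogenases went opposite ways: Glyma01g28850 had 9 reads in NaCl (listed at 0) against 950 in NaCl+Mt, an 81.5-fold difference with a counting interval of 42.8 to 179, while Glyma07g18130 fell from RPKM 5.46 to 1.45 (log2 −1.84 ± 0.19). In H2O they stood at 24.3 and 0.398. *ALDH3F* (Glyma12g06130) rose from 10 reads (listed at 0) to 97 reads, with a log2 of 2.39 from the reads, and *ALDH3H* (Glyma04g42740) fell from RPKM 8.84 to 4.33 (log2 −1.01 ± 0.11), only just past the fold of 2. Both genes encode aldehyde dehydrogenases, which oxidize aldehydes to acids, and both were highest in Mt, at 14.5 and 23.6.

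For 4 of these genes the study designed a pair of primers for quantitative PCR, and each symbol belongs to a single locus of the list. The study ran such PCR for selected genes on RNA from plants grown and treated separately. It reported that the outcome matched its sequencing, and those PCR values were not used here. They are shown as the sequences the study gave for these symbols, were not aligned to the transcripts here, and the chromosome is that of the locus name. The primers are printed left primer first and then right primer, each 5′ to 3′; the 4 genes were picked after their values were seen.
GAPC1 left (chromosome 11): cgaatggggttacagttccc
GAPC1 right: tcaatgatatcacacacagc
PFK left (chromosome 5): agtgggcttgtcaatggaag
PFK right: atgccaaagtcctaacaccc
ALDH3F left (chromosome 12): gtaagaagaagtttcctcac
ALDH3F right: gtacgtgcatatatgctagc
ALDH3H left (chromosome 4): gtgcataccatgggaagttc
ALDH3H right: gttaagcttaggaccatcc

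In the citrate branch, which supplies cytosolic acetyl-CoA, the subunits of ATP-citrate lyase did not move together. *ACLA* Glyma15g42140 rose from RPKM 2.84 to 7.34 (log2 1.34 ± 0.14) and *ACLA* Glyma03g38810 was at 9.81 and 7.39, whereas *ACLB* (Glyma17g03700) fell from 185 to 36 reads, RPKM 2.80 to 0.421 (log2 −2.48 ± 0.26). That rise and that fall were the only calls among 4 tested loci of the tricarboxylic acid cycle list, against 10.7% up and 4.83% down of all loci. Fumarase (*FUM2*) had a log2 of −0.66, and *MDH* was below the filter, at 4 reads in NaCl against 22 in NaCl+Mt.

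Genes of ascorbate and glucuronate metabolism rose at all 4 tested loci (5 in all, median log2 2.45), against 10.7% of all loci. *APX4* (Glyma02g37160), annotated as an ascorbate peroxidase, the kind of enzyme that uses ascorbate to remove hydrogen peroxide, was at RPKM 1.03 in NaCl against 8.89 in NaCl+Mt, with 2.52 in H2O and 42.7 in Mt (log2 2.99 ± 0.24). *VTC4* (Glyma07g39620), the phosphatase that releases galactose in ascorbate synthesis, had 4 reads in NaCl (listed at 0), 91 in NaCl+Mt, 130 in H2O and 60 in Mt; from the reads its log2 was 3.40. In both genes NaCl was the lowest library. The glucuronosyltransferases *UGT* rose at 2 loci, Glyma03g03840 from 12 to 68 reads (log2 1.92 ± 0.45) and Glyma19g03000 from 50 to 258 reads (log2 1.89 ± 0.22), and the other *UGT* locus was below the filter. The study placed the *UGT* genes on this route, and members of that family also attach sugars to many small molecules.

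Of 26 tested loci of the cell wall list (39 in all), 9 rose and 3 fell, against 10.7% and 4.83% of all loci, with a median log2 of 0.44. The pectinesterases, which remove methyl groups from pectin, rose at 4 of 6 tested loci (10 in all), and the other tested ones, Glyma19g40020 and Glyma15g20550, had log2 values of −0.31 and −0.25. The pectinesterase of the *ATPMEPCRB* type at Glyma06g47200 was at RPKM 0.766 in NaCl against 12.5 in NaCl+Mt, with 11.5 in H2O and 17.9 in Mt (log2 3.87 ± 0.21), *PecEST* Glyma17g04940 was at RPKM 0.879, 9.91, 0.780 and 10.96 (log2 3.65 ± 0.22), and *PecMET* Glyma07g05150 was at RPKM 10.4, 54.0, 1.87 and 10.8 (log2 2.47 ± 0.14). NaCl was the lowest library for all 3 genes, though for *PecEST* it was hardly lower than H2O. *PecMET* Glyma16g01650 was at the edge of the call, with a log2 of 1.02, and fell short of it under other scalings (0.99). None of the 7 galacturonosyltransferases (*GAUT*), which build pectin, was called.

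Enzymes that hydrolyse wall glucans and related sugars moved both ways. Cellulase *CEL2* (Glyma18g03470) rose from 48 to 930 reads, RPKM 0.875 to 13.1 (log2 3.76 ± 0.21), and stood at 6.30 in H2O and 20.5 in Mt. The glycosyl hydrolase *GH* Glyma10g15980 rose from RPKM 5.99 to 56.0 (log2 3.20 ± 0.07), above its 30.1 in H2O and 39.7 in Mt. Of 9 tested β-glucosidases (*BGLU*), which free glucose from many conjugates, 3 rose and 3 fell, against 10.7% and 4.83% of all loci. Glyma15g03620 had 2 reads in NaCl (listed at 0) against 342 in NaCl+Mt, a ratio of 132 with a counting interval of 36.3 to 1095, and Glyma15g42590 fell from RPKM 16.0 to 3.16 (log2 −2.30 ± 0.12). The latter stood at 130 in Mt and 2.91 in H2O, so NaCl+Mt was close to H2O and Mt was far above the rest.

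In amino acid synthesis, 7 of 15 tested loci rose and 1 fell (22 in all, median log2 0.72), against 10.7% and 4.83% of all loci. The largest were of genes nearly without reads in NaCl. The branched-chain aminotransferase *BcaT* (Glyma07g30500), which catalyses the last step of leucine, isoleucine and valine synthesis, had 2 reads in NaCl (listed at 0), 457 in NaCl+Mt, 284 in H2O and 28 in Mt; NaCl+Mt over NaCl was 177-fold, with a counting interval of 48.6 to 1462. Tryptophan synthase β (*trpB*, Glyma11g00580) had 4 reads in NaCl (listed at 0), 446 in NaCl+Mt, 123 in H2O and 408 in Mt, which is 86.1-fold (33.4 to 318). Tryptophan is the precursor of melatonin itself. The listed *trpE* Glyma18g03270 and *aroK* were not called, with log2 values of 0.14 and 0.33.

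Glutamate synthase *GLT1*, which makes glutamate from glutamine, rose at Glyma04g41540 from RPKM 8.71 to 46.2 (log2 2.39 ± 0.03), with 51.3 in H2O and 56.3 in Mt, and at Glyma06g13280 from 3.19 to 9.09 (log2 1.48 ± 0.06). *CYSC1* (Glyma09g39390), a cyanoalanine and cysteine synthase, was at 13.1 in NaCl against 69.2 in NaCl+Mt, with 71.1 in H2O and 32.9 in Mt (log2 2.40 ± 0.07). For both *CYSC1* and *GLT1* Glyma04g41540, NaCl was the lowest library and NaCl+Mt lay close to H2O. *SHMT* Glyma05g28490, which interconverts serine and glycine, had a log2 of 1.24 ± 0.07, and cysteine synthase *cysK* Glyma19g43150 one of 1.04 ± 0.03. The other *cysK* locus and *cysE*, which makes the precursor of cysteine, were not called, with log2 values of 0.72 and 0.06. The fall was of *P5CS2* (Glyma03g12240), which catalyses the committed step of proline synthesis, from 85 to 17 reads, RPKM 1.03 to 0.159 (log2 −2.12 ± 0.38). The other *P5CS2* loci had log2 values of −0.33 and −0.59 and were not called.

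Neither *ASMT* locus of the list passed the filter. They had 4 and 3 reads in NaCl and 10 and 2 in NaCl+Mt, with 0 in H2O and 786 and 159 in Mt. No rise to the level of Mt was thus seen under salt, and a smaller difference could not be measured from so few reads. Among polyamine genes, agmatinase *speB* (Glyma03g03270), which releases putrescine from agmatine, was at RPKM 1.05 in NaCl against 13.8 in NaCl+Mt, with 2.27 in H2O and 18.7 in Mt (log2 3.60 ± 0.24), so both libraries with melatonin were above both without it. Spermidine synthase *SPDS* Glyma20g28340 fell from 9.56 to 4.31 (log2 −1.13 ± 0.13), and the other *SPDS* loci had log2 values of 0.20 and −0.27.

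In the fatty acid list, 3 of 7 tested loci fell and 2 rose, against 4.83% and 10.7% of all loci. The β-ketoacyl-CoA synthases, which lengthen fatty acids to the very long chains of waxes and membranes, fell at all 3 loci: *KCS11* Glyma10g32260 from RPKM 21.0 to 4.42 (log2 −2.23 ± 0.09), *KCS11* Glyma20g35340 from 2.10 to 0.837 (log2 −1.23 ± 0.23) and *KCS6* Glyma08g30140 from 73 to 39 reads (log2 −1.14 ± 0.29). Their RPKM in H2O was 2.05, 0.352 and a listed 0, below NaCl in each case. *KAS I* Glyma05g36690, of plastid fatty acid synthesis, rose from 14 to 71 reads (log2 1.64 ± 0.42), and the plastid desaturase *FAD8* Glyma02g39230 rose from 3.77 to 8.84 (log2 1.21 ± 0.13). The other tested *FAD8* locus and *FAD2* were not called, with log2 values of 0.91 and −0.81, and the other *KAS I* locus was below the filter, at 12 reads in NaCl against 3 in NaCl+Mt. Over the 7 tested loci (11 in all) the median log2 was −0.81, but 0.05 with RPKM of at least 5 required and 0.20 with no filter.

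Most subunits of the photosystems differed by less than 2-fold, and most of them were lower in NaCl+Mt than in NaCl. The clearest rises of the light-reaction list were of ferredoxin (*PetF*), which takes electrons from photosystem I. Of 23 loci, all tested, 5 rose (21.7%, against 10.7% of all loci) and 1 fell (4.35%, near the 4.83% of all loci), with a median log2 of −0.15. *PetF* Glyma12g29090 was at RPKM 4.79 in NaCl against 44.5 in NaCl+Mt, with 9.06 in H2O and 112 in Mt (log2 3.19 ± 0.17). Glyma20g24500 was at RPKM 34.9, 21.7, 6.59 and 28.8 (log2 2.11 ± 0.15), and Glyma10g42540 at RPKM 19.6, 14.3, 4.87 and 19.7 (log2 1.996 ± 0.17). NaCl was the lowest library in these 3 genes, and NaCl+Mt came close to H2O in the latter pair. *PetF* Glyma11g00800 had 4 reads in NaCl (listed at 0) against 30 in NaCl+Mt, and *PetF* Glyma12g29100 was level, with a log2 of −0.08. *PsaO* Glyma12g09730, of photosystem I, rose from 55.1 to 127 (log2 1.21 ± 0.06), and *PsbY* (Glyma11g37580), of photosystem II, fell from 81.1 to 36.5 (log2 −1.15 ± 0.06). The other 17 loci had log2 values between −0.91 and 0.71. Of the photosystem subunits, only *PsbE* and the *PsaO* loci had positive values. *PsaH*, *PsbO* and *PsaF* were at −0.91, −0.60 and −0.43.

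Genes of dividing cells were tested at few loci, and most of the cell cycle list was below the filter. Of 40 cell cycle loci, 32 did not reach RPKM 1 in either library; of the other 8, none rose and 1 fell (10.7% and 4.83% of all loci), which with 8 loci is near those shares. That one was the cyclin *CYCA* Glyma06g12220, with 58 reads in NaCl against 6 in NaCl+Mt (listed at 0), and 3 in H2O and 518 in Mt. Of 12 tested DNA replication loci (22 in all), none rose and 1 fell, against 10.7% and 4.83% of all loci. With 12 loci this is near those shares. The fall was of the polymerase subunit *POLE1* (Glyma12g09220), from 321 to 167 reads (log2 −1.17 ± 0.14). The 7 tested *MCM* loci, which license replication origins, had log2 values between −0.46 and 0.32 and RPKM between 0.95 and 2.40 in the libraries compared, whereas they stood between 4.52 and 12.6 in Mt.

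A further set of 28 transcripts had been chosen by the study because they were higher in Mt, NaCl and NaCl+Mt than in H2O. As a high NaCl value was part of that choice and NaCl is the reference here, their direction in NaCl+Mt:NaCl is a description only. Of 27 tested, none rose and 9 fell, against 9.86% and 4.43% of all tested transcripts, with a median log2 of −0.46. Genes of surface lipids and cell walls were among them. A putative CER1 protein (Glyma03g24320), which in Arabidopsis makes the alkanes of cuticular wax, had 7010 reads in NaCl against 106 in NaCl+Mt (RPKM 95.9 and 1.12), with 4 reads in H2O and 166 in Mt. It was 85.6-fold lower in NaCl+Mt, with a counting interval of 70.7 to 105.

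Lipid transfer family proteins, small secreted proteins that bind lipids, fell at Glyma18g41320 from RPKM 87.2 to 8.93 (log2 −3.27 ± 0.13) and at Glyma07g16770 from 138 to 19.7 (log2 −2.81 ± 0.09). The laccase *IRX12* (Glyma18g42520), of lignin formation in Arabidopsis, fell from 9.96 to 0.825 (log2 −3.44 ± 0.19). *MAP70-5* (Glyma15g12490), a microtubule-associated protein, fell from 12.2 to 1.47 (log2 −2.97 ± 0.14). *RD22* (Glyma04g35130), which in Arabidopsis responds to dehydration and abscisic acid, was the most abundant of the set. Its RPKM was 2744 in NaCl against 638 in NaCl+Mt, with 67.8 in H2O and 1805 in Mt (log2 −2.10 ± 0.01), so that Mt and NaCl were both high and NaCl+Mt lay below both. Cycloartenol synthase *CAS1* (Glyma20g33450), of sterol synthesis, *CYP83B1* (Glyma18g11820) and a SEC14 family protein (Glyma04g11370) fell with log2 values of −1.61, −2.21 and −2.05. Among those not called, *LOX1* lipoxygenase, *CHLM* of chlorophyll synthesis and the arabinogalactan proteins *AGP17* and *AGP18* had log2 values of −0.74, 0.11, 0.67 and 0.18.

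**Figure D5:**
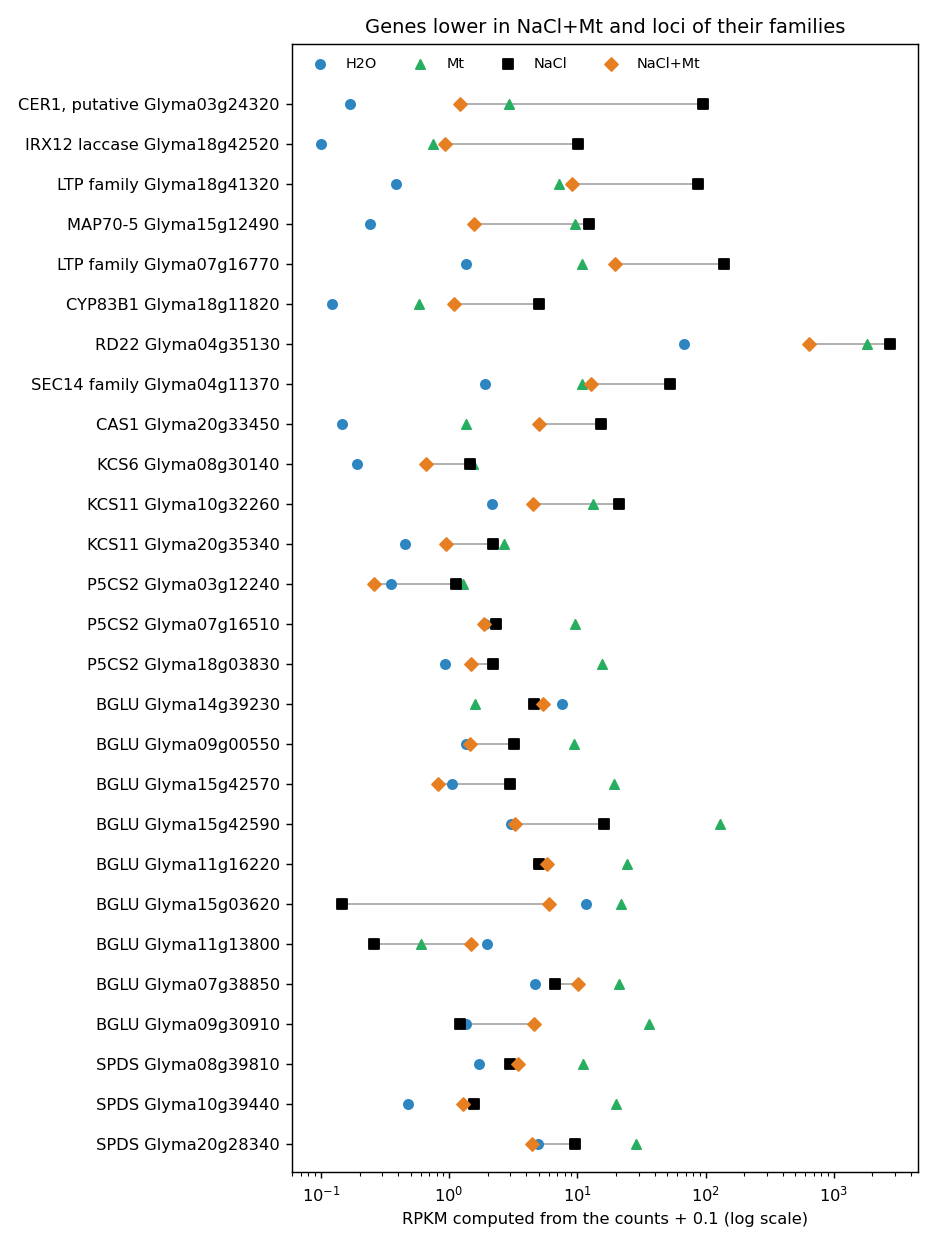
RPKM + 0.1 (log axis), computed from the reads, of the 9 annotated transcripts that fell in the set chosen by the study, and of the tested loci of *KCS6*, *KCS11*, *P5CS2*, *BGLU* and *SPDS*, in the 4 libraries. NaCl (black squares) is the highest library for all 9 transcripts of the set, among them *CER1* at 95.9 and *RD22* at 2744, and *BGLU* loci move both ways.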

How the data were processed

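Leaf RNA of 4 treatments was sequenced as 1 library each. The authors mapped reads to the soybean genome with BWA (version 0.7.4 per the labels' processing notes) and deposited, per transcript model, its length, the count of mapped reads and RPKM; the genome release is not given in the sources used here. The deposited RPKM equal counts divided by length and by total mapped reads (3.62221e+07 for NaCl, 4.68862e+07 for NaCl+Mt), although the methods name uniquely mapped reads. All columns were assigned to a sample.

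Folds were computed from RPKM + 0.1 with the thresholds given above, in Python 3.11.15 (pandas 2.3.3, numpy 2.4.6, scipy 1.17.1), and figures with matplotlib 3.10.9. SEs came from the 2 counts. Fold intervals are exact conditional 95% Clopper-Pearson intervals, and the floor was 3 counts. An exact fold of 2 counted as called. Reads are not independent molecules, so all errors cover counting only. The code for the calls was checked on simulated counts, which says nothing of the conditions. Alternatives were pseudocounts of 0.01 and 1, no filter, RPKM of at least 5, a fold of at least 4, median-of-ratios scaling, TMM scaling (edgeR 4.0.16 in R 4.3.3), RPKM recomputed from counts, leaving out transcripts with listed zeros, a minimum of 30 reads, 1 transcript per locus and, chosen after seeing the data, counts under 3 set to 3.

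The comparison, members and lists were chosen with earlier results of these data known. Lists and symbols come from the study's annotation. Rankings of rises, falls and abundant calls left out loci with listed zeros despite reads. Genes were named by rule: the 12 largest rises and falls, the 8 most abundant calls each way, called loci of the lists (up to 4 in long lists, and all loci whose symbols the study's text names) and the 28 shared transcripts. Genes outside this rule, namely several called loci of long lists, and the limits of 30 reads for transcripts in 1 library were added after values were seen. Of the loci, 0 matched a RefSeq gene table, so unnamed loci are mostly given by ranges, and the planned product families, promoter motifs and markers of nodule, seed and pollen were not analysed here.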

Additional observations from a re-analysis of the deposited data

Results flagged for a closer look

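The libraries give a comparison of melatonin with salt (NaCl+Mt:NaCl) and one without it (Mt:H2O). Of the annotated transcripts, 36 were called in opposite directions in these comparisons, and 16 differed by a fold of at least 4 in both, a limit chosen after the values were seen. These are 23.2% and 10.3% of the 155 annotated transcripts tested in both, which the study had chosen on these libraries, against 5.44% and 1.25% of all 37859 transcripts tested in both. Each value rests on 1 library a side, and the difference between the comparisons was not tested.

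Several carbon genes and the amino acid gene *BcaT* were higher with melatonin under salt and lower with melatonin in water. The log2 values in NaCl+Mt:NaCl and Mt:H2O were 3.82 and −2.93 for *GAPC1*, 3.41 and −2.19 for *PFK*, 2.34 and −2.32 for *ATBETAFRUCT4*, and 2.85 and −2.55 for *ATBFRUCT1* Glyma15g02850. They were 7.41 and −2.75 for *GroES-like* Glyma01g28850 and 6.74 and −3.22 for *BcaT*, both of which were listed at 0 in NaCl. Other amino acid genes called up under salt were mixed. In Mt:H2O, *CYSC1* and *cysK* Glyma19g43150 had log2 values of −1.11 and −1.90. There *trpB*, *SHMT* Glyma05g28490, *GLT1* Glyma06g13280 and *GLT1* Glyma04g41540 had 1.70, 2.13, 2.33 and 0.13.

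Others were lower with melatonin under salt and higher with melatonin in water. Among genes of surface lipids, the putative CER1 protein had −6.30 and 4.87, *KCS11* Glyma10g32260 had −2.23 and 2.63, and the lipid transfer family proteins had −3.27 and 6.17 (Glyma18g41320) and −2.81 and 3.0 (Glyma07g16770). *RD22* had −2.10 and 4.73, *MAP70-5* had −2.97 and 6.58, the SEC14 family protein had −2.05 and 2.49, *ACLB* had −2.48 and 2.06, and *BGLU* Glyma15g42590 had −2.30 and 5.43. The cyclin *CYCA* Glyma06g12220 had −3.75 and 7.13, with listed zeros in NaCl+Mt and H2O. H2O was listed at 0 despite a few reads for the CER1 protein (4 reads), Glyma18g41320 (3), *MAP70-5* (7) and *CYCA* (3), and from the reads their Mt:H2O values were 4.12, 4.23, 5.32 and 6.28.

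Transcripts listed at RPKM 0 in both libraries entered no comparison, yet 31 of them had at least 100 reads in each. From the reads, 2 would be called up and 2 down. The one with most reads had 1137 in NaCl and 3210 in NaCl+Mt, a log2 of 1.12 computed from the counts.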

How the results depend on the processing

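Every alternative left more transcripts up- than down-regulated. Down-regulated transcripts numbered 982 with a pseudocount of 1 and 2660 with no filter. Requiring RPKM of at least 5 gave 2113 up and 905 down, and a fold of at least 4 gave 1546 up and 321 down. Both counts stayed within 1.5 times of 3787 and 1702 under the other alternatives, for example 3640 and 1869 with median-of-ratios scaling, 3635 and 1877 with TMM scaling, 3764 and 1704 with RPKM recomputed from counts, and 3300 and 1607 without transcripts that have listed zeros. None of 87 single log2 values changed sign; 12 came under a fold of 2 with a pseudocount of 1, and 1 (*PecMET* Glyma16g01650) with either scaling. List medians changed sign with RPKM of at least 5 for the cell cycle (−0.48 to 0.39), the tricarboxylic acid cycle (−0.53 to 0.47), melatonin synthesis and polyamines (−0.04 to 1.23) and fatty acids (−0.81 to 0.05), and with no filter for the last pair (0.10 and 0.20), where different loci were tested. No paired analysis was possible because each group has 1 library. Product families could not be run. Precision is limited by 1 library a group, and for genes with few reads by counting.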
